A study of Mus musculus with 62 samples.

Results

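Among the genes counted in this series, 56 carry the names of adenylyl cyclases, cyclic nucleotide phosphodiesterases, subunits of protein kinase A (PKA) or subunits of heterotrimeric G proteins. They were chosen by name alone, as protein-coding genes whose mouse symbols begin with Adcy, Pde, Prkar, Prkac, Gna, Gnb or Gng followed by the family's number or letter. The annotation holds 70 such genes, and 56 of them are among the 12483 genes of the count tables. By class, 11 of 13 Gα genes, 4 of 5 Gβ genes, 9 of 10 Gγ genes, all 6 PKA subunit genes, 8 of 10 adenylyl cyclase genes and 18 of 26 phosphodiesterase genes were counted. Of the 56, 55 were in both tables and Gng10 was in the table of the nucleus accumbens and prefrontal cortex only. The other 14 (Gna14, Gna15, Gnb3, Gng8, Adcy4, Adcy10, Pde2a, Pde4c, Pde6a, Pde6b, Pde6c, Pde6g, Pde6h and Pde11a) are not analysed here. Pde4dip, Pde12 and Pde6d carry the family's name although their products are known for other work. This is respectively in centrosome and Golgi organisation, in mitochondrial RNA trimming and in carrying prenylated proteins. These genes are included in all counts and sums of phosphodiesterases below.

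The libraries came from bulk punches of frozen brain from 26 C57BL/6J mice killed at zeitgeber time 6 h, which is in the light phase. This was about 4 weeks after circadian rhythm disruption (CRD) during adolescence, or a control paradigm, had ended. There were 26 libraries of the nucleus accumbens (NAc), 17 of the prefrontal cortex (PFC) and 19 of the suprachiasmatic nucleus (SCN), each from 1 animal. The labels name the region and the mouse number and give no CRD or control group, age or sex. Each region therefore pools control and CRD mice and, per the study, both sexes, and no effect of CRD could be examined. The question here is how the machinery of cAMP signalling differs between the NAc and the PFC, and which of its genes were present in the SCN and at what level.

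In this pathway a receptor bound by its ligand activates a G protein made of an α, a β and a γ subunit. The stimulatory α subunits, Gαs and Gαolf, activate adenylyl cyclases, which make cAMP, whereas the Gαi family restrains several of them. Cyclic AMP releases the catalytic subunits of PKA from its regulatory subunits, and phosphodiesterases end the signal by hydrolysing cAMP, cGMP or both. The projection neurons of the striatum, of which the NAc is a part, are known for a particular version of this chain, in which Gαolf (Gnal) stands in for Gαs between dopamine or adenosine receptors and adenylyl cyclase 5, and phosphodiesterase 10A degrades the product. In the SCN, cAMP signalling is known to take part in the pacemaker of its neurons.

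The NAc libraries held 28879724 to 60009482 counts, the PFC libraries 31216225 to 50333579 and the SCN libraries 16496666 to 35389742. Neuronal markers matched the labelled regions in sum. The summed level of 9 striatal projection neuron markers was 1333 to 3262 CPM (counts scaled to library size) in the NAc and 53.1 to 131 in the PFC, and 7 of these markers summed to 97.8 to 693 in the SCN. Cortical glutamatergic markers, 7 in number, summed to 796 to 939 CPM in the PFC and 11.6 to 447 in the NAc, and all 9 SCN neuron markers were counted in the SCN, where they summed to 89.2 to 463. Glial markers also differed between the regions. The 9 oligodendrocyte markers had sums of 674 to 1598 CPM (NAc), 147 to 445 (PFC) and 450 to 3287 (SCN), those of the 6 astrocyte markers were 322 to 695, 395 to 622 and 839 to 1696, and their part in the results was not tested. Some libraries stood apart. SCN J1199 and SCN J1140 were the highest SCN libraries in striatal markers (693 and 336 CPM, the next at 170), the 5 NAc libraries highest in cortical markers (NAc J1199, J1140, J1158, J1160 and J1013) were led by NAc J1199 at 447, and SCN J1165 held 1403 counts of Xist where the NAc and PFC libraries that share its number held 23 and 18. SCN J1157 and SCN J1159 had the most counts of the SCN libraries (35389742 and 35282533) and the smallest shares of mitochondrial ribosomal RNA (20.5% and 24.8%, against 33.5% to 51.6% in the other SCN libraries). Mouse numbers fell into a lower run, up to J1021, and an upper run, from J1140, whose meaning the labels do not give. Where a member's call changed without these libraries or in 1 run, the values of the main cases are given beside it. Levels below are CPM over the 11133 genes common to both tables, given as lowest, median and highest library of a region, and a level compared between genes is divided by the length of the gene's merged exons (CPM per kb).

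Between the NAc and the PFC, the whole Gαolf, cyclase 5 and phosphodiesterase 10A chain was many-fold higher in the NAc, and several cyclases, Gγ subunits and Gαs were higher in the PFC. In edgeR's quasi-likelihood test on all 11569 genes of that table, a gene was called when its Benjamini-Hochberg adjusted p was under 0.05 and its fold change at least 1.2. By this rule 38 of the 56 members were called, 19 higher and 19 lower in the NAc, where 45.4% of all genes were called, 23.7% higher and 21.7% lower. The members' median log2 fold change was -0.01 and that of all genes tested was 0.02. A called difference of at least 2-fold was found for 22 members (8.89% of all genes), and one of at least 8-fold for 5 members (0.856% of all genes), which were Pde10a, Pde1c, Gng7, Pde1b and Adcy5. The levels of the 2 regions did not overlap in any library for 22 members, 14 higher and 8 lower in the NAc, against 9.5% of all genes, 4.83% higher and 4.67% lower. In bulk punches, more cells of a type and more RNA per cell cannot be told apart.

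**Figure D1:**
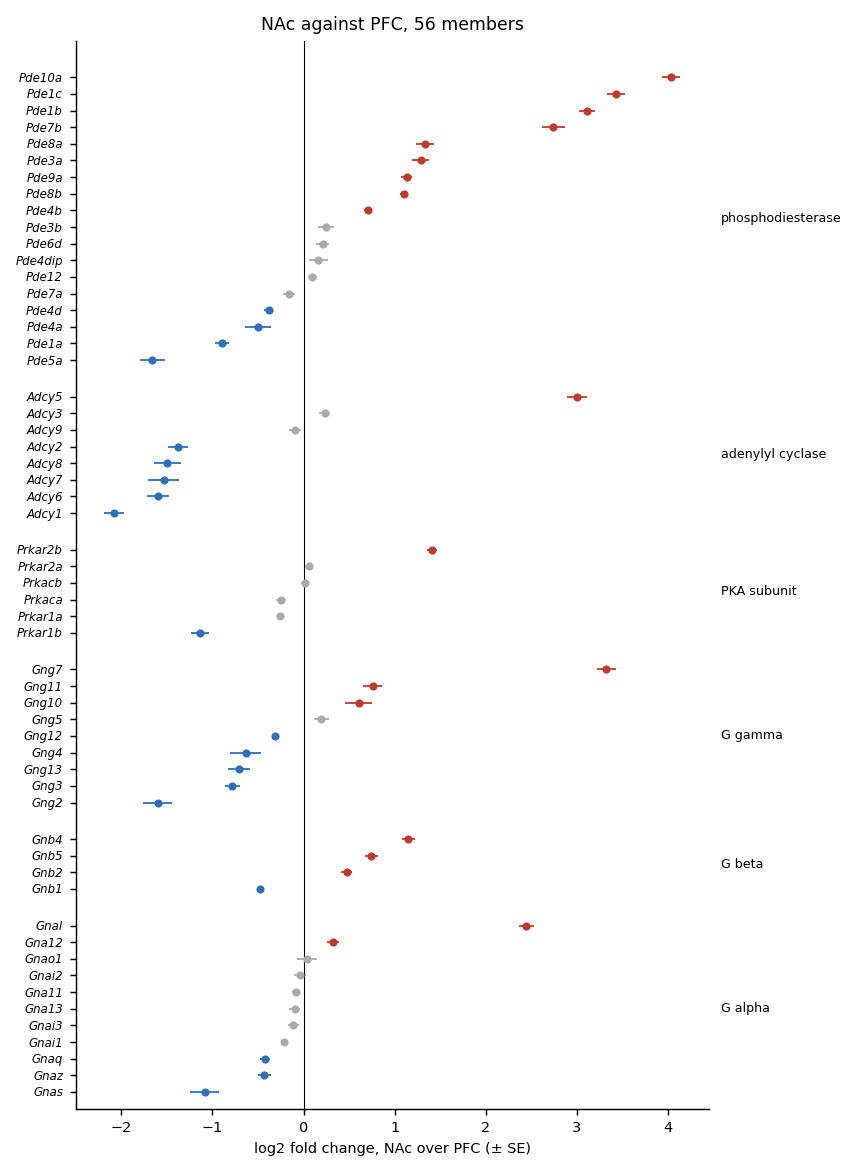
Fitted log2 fold change of each of the 56 members in the NAc over the PFC (x axis, points with standard errors), grouped by class on the y axis; red and blue points were called higher and lower in the NAc, and grey points were not called. Pde10a (4.03), Pde1c (3.43), Gng7 (3.32), Pde1b (3.11) and Adcy5 (3.0) lie farthest to the right and Adcy1 (-2.08) farthest to the left.

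Of the Gα genes, 2 were called higher and 3 lower in the NAc, and 6 were not called. Gnal, which encodes Gαolf, lay between 175 and 395 CPM across NAc libraries (median 296), between 38.2 and 64.2 across PFC libraries (median 56.2), and between 23.1 and 203 across SCN libraries (median 32.2). Every NAc library lay above every PFC library, and 2 SCN libraries, at 125 and 203 CPM, reached past the PFC. The NAc level was 5.44-fold that of the PFC (log2 2.44 ± 0.08 SE, edgeR adjusted p = 1e-28) and was higher in 17 of the 17 mice with both regions. Gnas, the gene of Gαs, showed the opposite order, with 50.3 to 297 CPM across NAc libraries (median 154), 246 to 408 across PFC libraries (median 356) and 311 to 793 across SCN libraries (median 405). It was 2.12-fold lower in the NAc than in the PFC (log2 -1.09 ± 0.16, adjusted p = 1.5e-07), lower in 17 of 17 mice, although the highest NAc libraries overlapped the lowest PFC libraries. The NAc libraries were spread widely, with 13 between 50.3 and 149 CPM and the other 13 between 159 and 297, the same sets that part in Gng2. About 22% of its exon bases overlap Nespas and Gm20721, and since the strand setting of the counting is not given, reads of these cannot be told apart from its own.

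The remaining Gα genes differed less between the NAc and the PFC. Gna12, of the same α family as Gna13, was higher in the NAc (log2 0.32 ± 0.07, adjusted p = 4.9e-05), a call that was lost in the lower mouse numbers alone (0.16, adjusted p = 0.23). Gnaq, the activator of phospholipase C, and Gnaz, of the inhibitory family, were lower (log2 -0.43 ± 0.06 and -0.43 ± 0.07, adjusted p = 5.7e-09 and 4.5e-07), the latter not called in the upper mouse numbers alone, where its fold stayed under 1.2 (log2 -0.25). The inhibitory Gnai1, Gnai2, Gnai3 and Gnao1, and Gna11 and Gna13, were not called, with log2 fold changes between -0.21 and 0.04. Gnai1 missed the call on fold only (adjusted p = 1.4e-06) and was lower in the NAc in 17 of 17 mice.

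All 4 Gβ genes were called. Gnb1, the most abundant, had 371 to 486 CPM across NAc libraries, 527 to 655 across PFC libraries and 336 to 427 across SCN libraries, and the PFC did not overlap the NAc or the SCN. It was 1.39-fold lower in the NAc than in the PFC (log2 -0.48 ± 0.03, adjusted p = 2e-16). Gnb4 (19.6 to 39.7 CPM in the NAc and 10.9 to 17.3 in the PFC), Gnb5, whose product pairs with RGS proteins (40.0 to 86.1 and 29.5 to 40.0), and Gnb2 (41.2 to 74.2 and 34.7 to 44.0) were higher in the NAc, by 2.22-, 1.67- and 1.39-fold.

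Gng7, known as the γ subunit that joins Gαolf in the striatum, lay between 130 and 305 CPM across NAc libraries (median 224), between 16.8 and 28.7 across PFC libraries (median 22.0), and between 8.07 and 75.5 across SCN libraries (median 12). All NAc libraries lay above all others. The NAc was 10.0-fold above the PFC (log2 3.32 ± 0.11, adjusted p = 5.9e-30) and higher in 17 of 17 mice. Gng2 had 6.93 to 30.9 CPM across NAc libraries (median 19.1), 45.6 to 68.6 across PFC libraries (median 56.8) and 55.1 to 91.6 across SCN libraries (median 66.0), so that the NAc lay below both other regions in every library. Within the NAc, 13 libraries had at most 15.1 CPM and the other 13 at least 23.1, with none between. It was 3.03-fold lower in the NAc than in the PFC (log2 -1.60 ± 0.16, adjusted p = 2e-12). Gng3, Gng13, Gng4 and Gng12 were also lower in the NAc than in the PFC, by 1.72-, 1.64-, 1.55- and 1.24-fold, and of these Gng4 was not called in the upper mouse numbers alone (log2 -0.46, adjusted p = 0.075). Gng11 and Gng10 were higher by 1.70- and 1.52-fold. Gng5 was not called with all libraries (log2 0.19, adjusted p = 0.038) and was called in only the 17 mice with both regions, with the mouse as a block or without (log2 0.29 in each, adjusted p = 0.0033 and 0.0027). Part of the exons of Gng10 (72%, shared with Gm20503), Gng13 (52%, Chtf18), Gng3 (24%, Bscl2) and Gng2 (20%, Gm48283) overlap other genes, which leaves the levels of Gng10 and Gng13 in particular uncertain.

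Of the adenylyl cyclases, 1 was called higher in the NAc, 5 lower and 2 not. Adcy5, the main cyclase of striatal neurons, inhibited by Gαi and by calcium, lay between 276 and 711 CPM across NAc libraries (median 475), between 43.8 and 77.7 across PFC libraries (median 61.9), and between 43.9 and 214 across SCN libraries (median 69.6). No NAc library overlapped the PFC or the SCN. The difference from the PFC was 8.02-fold (log2 3.0 ± 0.11, adjusted p = 8.1e-28) and went the same way in 17 of 17 mice. Adcy1, which calcium and calmodulin stimulate, showed 38.9 to 139 CPM across NAc libraries (median 62.9), 207 to 362 across PFC libraries (median 276) and 6.13 to 27.8 across SCN libraries (median 10.5), and no library of one region overlapped another. It was 4.22-fold lower in the NAc than in the PFC (log2 -2.08 ± 0.11, adjusted p = 3.7e-22). Adcy2, which Gβγ stimulates, had 23.1 to 68.2 CPM across NAc libraries (median 42.2) and 101 to 123 across PFC libraries (median 111), a 2.59-fold difference (log2 -1.38 ± 0.11, adjusted p = 7.8e-15).

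The 3 other cyclases called had at most 29.8 CPM in any library. Adcy6, the closest relative of Adcy5, had 2.34 to 8.11 CPM in the NAc and 11.7 to 16.9 in the PFC. Adcy7 had 0.408 to 3.48 and 2.73 to 5.0, and Adcy8, the other calmodulin-stimulated cyclase, 2.14 to 9.93 and 11.0 to 18.7. They were 3.02-, 2.89- and 2.82-fold lower in the NAc, and only Adcy7 of the 3 overlapped between the regions. Adcy3 and Adcy9 were not called (log2 0.23, adjusted p = 0.00036, and -0.09, adjusted p = 0.18), the former with a call in the upper mouse numbers alone (0.34, adjusted p = 0.00013).

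Phosphodiesterases were called higher in the NAc for 9 genes and lower for 4, and 5 were not called. Pde10a, which hydrolyses both cAMP and cGMP, lay between 357 and 786 CPM across NAc libraries (median 490), between 24.0 and 41.5 across PFC libraries (median 31.4), and between 12.6 and 191 across SCN libraries (median 24.9). Its lowest NAc library lay above the highest library of the other regions. The NAc was 16.4-fold above the PFC (log2 4.03 ± 0.10, adjusted p = 2.9e-34), in 17 of 17 mice. Of the calmodulin-dependent PDE1 family, Pde1b and Pde1c were high in the NAc and Pde1a was not. Pde1b had 242 to 521 CPM in the NAc and 36.8 to 54.5 in the PFC, and Pde1c 25.9 to 51.4 and 2.36 to 4.90, differences of 8.63- and 10.8-fold (log2 3.11 ± 0.09 and 3.43 ± 0.10, adjusted p = 1.6e-31 for each). Pde1a had 69.5 to 152 CPM across NAc libraries (median 105) and 163 to 238 across PFC libraries (median 194), 1.86-fold lower in the NAc without overlap (log2 -0.89 ± 0.08, adjusted p = 2.1e-14).

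The cAMP-specific Pde7b had 67.4 to 174 CPM in the NAc and 11.2 to 24.2 in the PFC, a 6.69-fold difference (log2 2.74 ± 0.13, adjusted p = 2.8e-23). Pde8a and Pde8b, cAMP-specific enzymes of high affinity, were 2.52- and 2.15-fold higher in the NAc, Pde3a, which cGMP inhibits, 2.44-fold, the cGMP-specific Pde9a 2.19-fold and the cAMP-specific Pde4b 1.64-fold, each in 17 of 17 mice and without overlap of the regions. The cGMP-specific Pde5a was 3.17-fold lower (log2 -1.66 ± 0.14, adjusted p = 1e-14), and Pde4a and Pde4d were 1.41- and 1.3-fold lower. The call of Pde4a was lost in the upper mouse numbers alone (log2 -0.28, adjusted p = 0.21). Pde3b and Pde6d were not called with all libraries and were called in only the 17 mice with both regions, with the mouse as a block (log2 0.35 and 0.27, adjusted p = 0.0037 and 0.0038) or without. Pde7a, Pde12 and Pde4dip had log2 fold changes between -0.16 and 0.16 and were not called, although Pde7a was called lower in the upper mouse numbers alone (-0.27, adjusted p = 0.0013).

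Of the PKA genes, 2 regulatory subunits were called, in opposite directions, and the catalytic subunits were not called. Prkar2b, the neuronal type II regulatory subunit, had 95 to 163 CPM across NAc libraries (median 123) and 41.6 to 53.3 across PFC libraries (median 46.5), 2.66-fold higher in the NAc (log2 1.41 ± 0.05, adjusted p = 5e-27). Prkar1b, a type I subunit, had 67.9 to 212 CPM across NAc libraries (median 137) and 255 to 351 across PFC libraries (median 302), 2.20-fold lower (log2 -1.14 ± 0.10, adjusted p = 4.2e-14). Neither pair of ranges overlapped. Prkacb and Prkar2a had log2 fold changes of 0.01 and 0.06. Prkaca and Prkar1a missed the call on fold only (log2 -0.25 and -0.26, adjusted p = 9.6e-05 and 1.1e-08), and Prkaca was called in only the 17 mice with both regions, with the mouse as a block (log2 -0.31, adjusted p = 0.00031) or without. Prkar1a was called in the upper mouse numbers alone (-0.32, adjusted p = 2e-06).

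**Figure D2:**
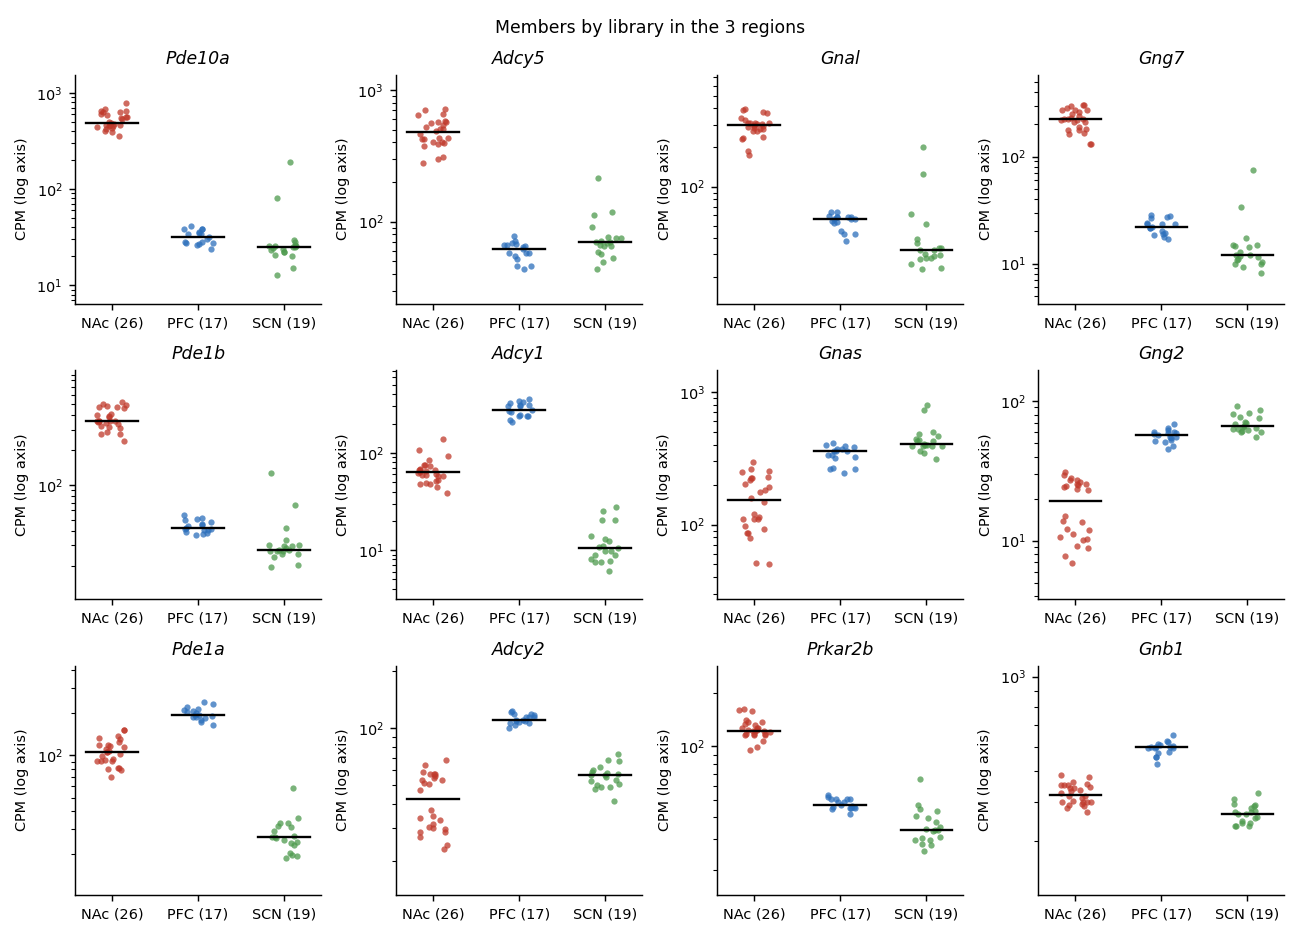
Level of 12 members in every library (y axis, CPM on a log axis) in the NAc, PFC and SCN (x axis, number of libraries in brackets); each point is a library and each bar the region's median. Pde10a, Adcy5, Gnal, Gng7 and Pde1b lie highest in the NAc, Adcy1 and Pde1a in the PFC, and the NAc points of Gng2 form separate groups below and above a gap from 15.1 to 23.1 CPM.

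The makeup of each class, as each gene's share of the summed CPM per kb in a library, followed these differences, and it needs no scaling between libraries or tables, only the gene lengths. Gng7 made up 35.7% to 66.8% of the Gγ sum in the NAc (median 55.8%), whereas Gng3 led in the PFC (33.8%) and in the SCN (34.8%), a lead that passed to Gng2 without division by length (27.2% and 33.4%). Adcy5 made up 47.2% to 78.9% of the cyclase sum in the NAc (median 70.4%), against 11.2% in the PFC and 24.6% in the SCN, where Adcy2 led with 36.6% and 33.8%. Without division by length, Adcy1 led in the PFC (49.8%) and Adcy5 in the SCN (29.6%). Among phosphodiesterases Pde1b led in the NAc with 37.0%, Pde1a in the PFC with 40.9%, and in the SCN Pde6d, which is no hydrolase, and Pde1b held shares within each other's spread (12.2% and 11.9%). Without division by length, Pde10a led in the NAc (32.9%) and Pde4dip in the SCN (16.6%), where Pde6d held 3.43%. These shares are over the 18 counted phosphodiesterases and leave out Pde2a, of whose exon bases 64% are shared with Gm45837. Of the Gβ genes Gnb1 led in each region, with 73.3%, 85.4% and 78.4% in the NAc, PFC and SCN, and of the PKA genes Prkar1a, with 37.4%, 38.1% and 44.3%. Among the latter Prkar2b held 14.1% in the NAc against 4.45% in the PFC and 3.40% in the SCN, and Prkar1b 14.9% in the NAc against 28.1% in the PFC. For the Gα genes Gnai1 led in the NAc (22.5%) before Gnal (14.6%), an order that turned without division by length (11.0% and 25.7%), and in the PFC (24.4%), and in the SCN Gnas (19.4%) and Gnai1 (18.8%) led at shares within each other's spread. The summed level of the 18 phosphodiesterases had NAc, PFC and SCN medians of 183, 80.2 and 41.9 CPM per kb. Within the same libraries the 6 PKA genes summed to 242, 286 and 272 CPM per kb.

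**Figure D3:**
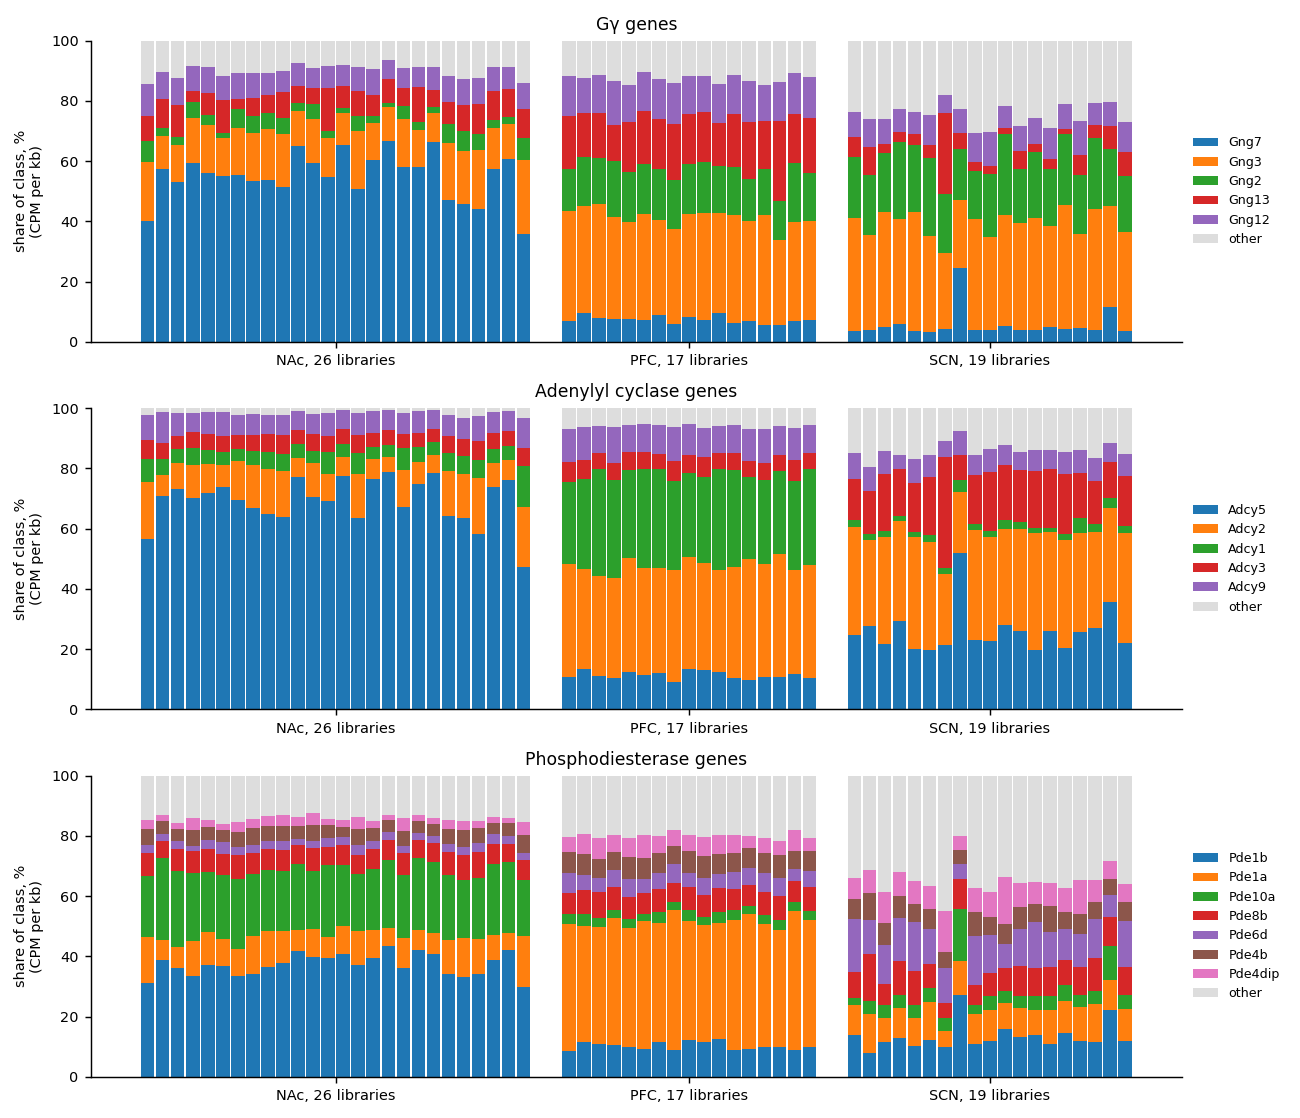
Share of each gene in the summed CPM per kb of its class (y axis, percent) in every library (1 bar each, grouped by region on the x axis) for Gγ, adenylyl cyclase and phosphodiesterase genes; grey is the sum of the members not named. Gng7 and Adcy5 take the largest share in the NAc libraries, and the SCN bars with the most Gng7 and Adcy5 are SCN J1199 and then SCN J1140.

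Ratios of paired genes within a library were also taken per kb. Gnal stood above Gnas in 25 of 26 NAc libraries (median ratio 2.14, lowest 0.798 in NAc J1199) and in none of the PFC (median 0.163) or SCN libraries (0.0779). The ratio of Gng7 to Gng2 was above 1 in all 26 NAc libraries (median 15.3), in none of the PFC libraries (0.455) and in 1 of 19 SCN libraries (median 0.193), which was SCN J1199. Prkar2b stood above Prkar1b in only 12 of 26 NAc libraries (median ratio 0.928) and in none of the PFC (0.157) or SCN libraries (0.203). For Adcy5 to Adcy1 the SCN stood with the NAc. The NAc, PFC and SCN medians were 14.9, 0.369 and 11.3, and the ratio was above 1 in all NAc and all SCN libraries and in no PFC library. In the SCN this ratio came with low levels of both genes, since Adcy5 was near its PFC level and Adcy1 lay below both other regions. NAc J1199, the NAc library highest in cortical markers, had the lowest value of each of these ratios in the NAc.

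Windows of 250 bases before RefSeq transcription starts are printed for a few members whose levels differed between the NAc and the PFC, and for Prkar1a. They are given because PKA is known to act on transcription through CREB at the cAMP response element (CRE). The choice was not by rank, and Pde1c, Pde1b, Pde7b and Gnal, which changed more than Gng2, are not printed. RefSeq's table for GRCm38.p6 lists a start for 45 of the 56 members. The motifs searched were the CRE TGACGTCA, its shorter form TGACG and the E-box CACGTG, at which the clock proteins CLOCK and BMAL1 bind. Both strands were searched, the CRE and the E-box read the same on both, and each CRE holds the shorter form on both strands. Adcy5 (chr16:35154614-35154863, plus strand), Gng7 (chr10:81014926-81015175, minus), Pde10a (chr17:8801495-8801744, plus), Adcy1 (chr11:7063183-7063432, plus) and Gng2 (chr14:19976694-19976943, minus) stand for members high in the NAc and high in the PFC, and Prkar1a (chr11:109650699-109650948, plus) for the member with a whole CRE. The windows of Adcy5 and Adcy1 lie before the annotated starts of these genes (35154877 and 7063489). That of Gng7 reaches into the gene, which the annotation ends at 81014945, and so holds bases of its first exon. Those of Pde10a, Gng2 and Prkar1a lie within the annotated spans of the genes, which have other starts further upstream. Capitals mark the motifs.
Adcy5: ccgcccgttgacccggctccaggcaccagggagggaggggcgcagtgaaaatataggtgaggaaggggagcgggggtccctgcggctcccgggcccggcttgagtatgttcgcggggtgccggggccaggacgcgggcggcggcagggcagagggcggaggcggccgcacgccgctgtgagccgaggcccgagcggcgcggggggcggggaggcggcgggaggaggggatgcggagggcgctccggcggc
Gng7: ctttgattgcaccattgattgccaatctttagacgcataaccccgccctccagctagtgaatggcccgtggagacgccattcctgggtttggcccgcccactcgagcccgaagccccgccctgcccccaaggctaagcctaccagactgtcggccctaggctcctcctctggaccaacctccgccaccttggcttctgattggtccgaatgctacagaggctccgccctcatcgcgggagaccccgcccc
Pde10a: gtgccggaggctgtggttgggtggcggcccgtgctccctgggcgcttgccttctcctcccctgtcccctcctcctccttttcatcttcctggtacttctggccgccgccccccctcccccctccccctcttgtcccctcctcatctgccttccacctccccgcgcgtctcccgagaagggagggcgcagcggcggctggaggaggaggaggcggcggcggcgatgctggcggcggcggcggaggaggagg
Adcy1: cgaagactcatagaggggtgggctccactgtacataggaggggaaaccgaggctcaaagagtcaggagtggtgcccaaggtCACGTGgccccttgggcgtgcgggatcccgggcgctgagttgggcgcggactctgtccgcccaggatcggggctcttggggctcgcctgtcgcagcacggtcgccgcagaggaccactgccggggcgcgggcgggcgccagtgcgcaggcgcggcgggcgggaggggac
Gng2: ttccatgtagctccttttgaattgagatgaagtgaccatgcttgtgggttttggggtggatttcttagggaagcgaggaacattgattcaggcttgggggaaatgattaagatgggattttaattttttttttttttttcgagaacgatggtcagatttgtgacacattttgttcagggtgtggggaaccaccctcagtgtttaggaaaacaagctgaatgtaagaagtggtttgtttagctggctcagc
Prkar1a: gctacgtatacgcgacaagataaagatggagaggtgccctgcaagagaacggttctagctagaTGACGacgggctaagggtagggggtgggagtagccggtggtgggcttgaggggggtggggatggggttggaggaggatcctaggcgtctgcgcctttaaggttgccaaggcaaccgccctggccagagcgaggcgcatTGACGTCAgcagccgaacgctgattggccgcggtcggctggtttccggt

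The window of Gng7 is 1 of its 2 listed ones, the other holding the shorter form, and that of Pde10a is 1 of 2, neither with a motif. Over all windows of a gene, the whole CRE was found in 1 of the 45 members, Prkar1a, (2.22%), and in 1.77% of all 27025 genes of the table and 3.29% of those in the count tables. The shorter form was found in 14 members (31.1%), compared with 19.8% of all genes and 31.4% of the 9426 listed genes that are in the count tables. The E-box was found in 8 members (17.8%), compared with 6.86% and 10.2%, and these were Adcy1, Gna13, Gnai1, Gnai3, Prkaca, Prkar1a, Prkar1b and Prkar2b. Neither Adcy5, Pde10a nor Gng2 held a motif in these windows, which says only that the letters are not there.

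Other genes of the pathway, from a list of 54 chosen by role, were tested for 44 genes, and of these, set against the PFC, 14 were called higher in the NAc, 13 lower and 17 not, where 23.7% and 21.7% of all genes were called higher and lower. The 5 PKA-regulated phosphoproteins were all called, 4 higher and 1 lower. Ppp1r1b, whose product DARPP-32 inhibits protein phosphatase when PKA phosphorylates it, was 23.5-fold higher in the NAc (log2 4.55 ± 0.14, adjusted p = 1.6e-30) and Arpp21 3.40-fold higher. Among genes that handle G proteins, Ric8b, the chaperone of Gαs and Gαolf, was 3.14-fold higher (log2 1.65 ± 0.08, adjusted p = 5.9e-23) and Ric8a, the chaperone of the other α families, 1.53-fold lower. The neurite gene Gprin3 was 3.39-fold higher and Gprin1 2.16-fold lower. Akap5, which anchors PKA at the membrane, was 2.73-fold higher, and the PKA inhibitor gene Pkib 2.50-fold lower. Adcyap1, which encodes the peptide PACAP, whose receptor stimulates cyclase, was 9.59-fold lower (log2 -3.26 ± 0.36, adjusted p = 9.8e-11). In the SCN 12 of the 44 were higher and 24 lower than in the NAc, and 11 and 24 than in the PFC, against 33.1% and 31% of all genes for the NAc and 33.7% and 31% for the PFC. Ric8b was 2.06-fold above the PFC there (log2 1.04 ± 0.09, adjusted p = 1.2e-16), where Gnal was not called with all libraries.

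The SCN table held 55 of the 56 members, all but Gng10, with median levels from 1.68 CPM (Pde5a) to 529.8 CPM (Prkar1a). Of these, 44 were called different from the NAc and 41 from the PFC by the same rule, compared with 64.1% and 64.7% of all 11133 genes. The SCN was filtered and deposited as a table of its own with less depth, so the region and the table cannot be told apart in these comparisons. Against the NAc 20 members were called higher in the SCN (33.1% of all genes) and 24 lower (31% of all genes), and against the PFC 19 and 22 (33.7% and 31% of all genes). The members' median log2 fold change was -0.21 and -0.03, and that of all genes 0.02 and 0.03. Taking the regions together, 12 members were called highest in the SCN, 16 lowest in the SCN, 13 highest in the NAc, 10 lowest in the NAc, 11 highest in the PFC and 8 lowest in the PFC, with 9 not apart from both other regions in any direction. A member can stand in a pair of these groups, since Adcy2, for example, was highest in the PFC and lowest in the NAc. The share of all genes in each of these groups was not taken, so the counts describe the members only. Levels did not overlap with the NAc for 19 members (13.2% of all genes), 8 higher in the SCN (5.63%) and 11 lower (7.54%), or with the PFC for 16 (20.7%), 7 higher (8.96%) and 9 lower (11.7%). A called difference of at least 8-fold was found from the NAc for 3 members (Gng7, Pde10a and Pde1b, against 0.799% of all genes) and from the PFC for 1 (Adcy1, against 1.01%), and one of at least 2-fold for 23 (14.5%) and 13 (16.5%).

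Most phosphodiesterases were lower in the SCN than in the NAc. Against the NAc none of the 18 was called higher (33.1% of all genes) and 13 were called lower (31% of all genes), with a median log2 fold change of -0.82. Against the PFC 5 were higher (33.7% of all genes) and 9 lower (31% of all genes). Pde10a in the SCN was 15.0-fold below the NAc (log2 -3.90 ± 0.21, adjusted p = 1.2e-25) and Pde1b 10.8-fold (log2 -3.43 ± 0.15, adjusted p = 3.6e-30), each lower in 19 of 19 mice. Pde1a, with 18.6 to 58.0 CPM across SCN libraries (median 26.1), lay below all libraries of both other regions and was 7.11-fold under the PFC (log2 -2.83 ± 0.11, adjusted p = 2.7e-34). Pde5a reached 0.185 to 4.86 CPM (median 1.68) and was 6.46-fold under the PFC (log2 -2.69 ± 0.19, adjusted p = 1e-20). Pde4b was 2.91-fold below the NAc and 1.78-fold below the PFC, with no overlap in either. Against the NAc, the calls of Pde4a, Pde4d and Pde4dip were lost in the upper mouse numbers alone (log2 -0.51, -0.25 and -0.35, adjusted p = 0.061, 0.0015 and 0.058), that of Pde4d on fold only. Pde4dip was not called against the PFC with all libraries (log2 -0.27) and was called lower without SCN J1165 (-0.30, adjusted p = 0.035) or without SCN J1157 (-0.35, adjusted p = 0.0097). Higher in the SCN than in the PFC were Pde1c by 3.73-fold, Pde8a by 2.37-fold, Pde9a by 2.11-fold, Pde7b by 2.09-fold and Pde6d by 1.23-fold.

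The cyclases split. Adcy1 was 22.2-fold lower in the SCN than in the PFC (log2 -4.47 ± 0.17, adjusted p = 4.6e-34) and 5.25-fold lower than in the NAc (log2 -2.39 ± 0.15, adjusted p = 4.1e-23). Adcy9 was 2.55- and 2.39-fold lower than in the PFC and NAc, without overlap. Adcy3, the cyclase of primary cilia, was 1.47-fold above the NAc and 1.72-fold above the PFC, 22% of its exon bases being shared with Cenpo on the other strand. Adcy7, with 4.39 to 14.7 CPM (median 8.63), was highest in the SCN, 6.93-fold above the NAc and 2.39-fold above the PFC (log2 2.79 ± 0.16 and 1.26 ± 0.17, adjusted p = 8.3e-25 and 1.4e-09). Adcy8, with 14.9 to 29.8 CPM (median 19), was 3.66-fold above the NAc and 1.29-fold above the PFC (adjusted p = 6.5e-21 and 0.014), and the latter call was lost in either range of mouse numbers alone (adjusted p = 0.088 and 0.061). Adcy6 was 2.97-fold above the NAc and did not differ in call from the PFC (log2 -0.03, 95% interval -0.26 to 0.21).

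Among G-protein genes, Gnai2 (112 to 172 CPM, median 126), Gna13 (60.9 to 99.2, 81.7) and Gna12 (31.3 to 59.96, 42.2) were highest in the SCN. They were 1.53-, 1.67- and 1.88-fold above the PFC without overlap, and 1.57-, 1.80- and 1.5-fold above the NAc. Gng5 and Gng4 were 2.01- and 1.58-fold above the PFC and 1.76- and 2.46-fold above the NAc. Gng11 was 2.18-fold above the PFC, and its smaller difference from the NAc (1.29-fold, adjusted p = 0.0075) was lost with the mouse as a block (log2 0.34, adjusted p = 0.073) and in the lower mouse numbers alone (0.33, adjusted p = 0.062). Gnas was 2.81-fold above the NAc without overlap (log2 1.49 ± 0.15, adjusted p = 2.8e-14), and 1.32-fold above the PFC (log2 0.40 ± 0.16, adjusted p = 0.024), the latter not called without SCN J1157 and SCN J1159 (log2 0.27, adjusted p = 0.12) or in the lower mouse numbers alone (0.23, adjusted p = 0.46). Gnao1, an inhibitory α subunit abundant in neurons, was 1.6- and 1.56-fold below the NAc and PFC. Gng13 was lowest in the SCN, with a median of 2.26 CPM, 2.90-fold below the PFC. Of the PKA genes, Prkar2a (66.2 to 84.5 CPM, median 70.6) and Prkaca (102 to 151, median 119) were highest in the SCN without overlap with either other region, by 1.57- and 1.68-fold over the NAc, and Prkar2b was lowest, 3.48-fold below the NAc (log2 -1.80 ± 0.07, adjusted p = 1.8e-32).

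**Figure D4:**
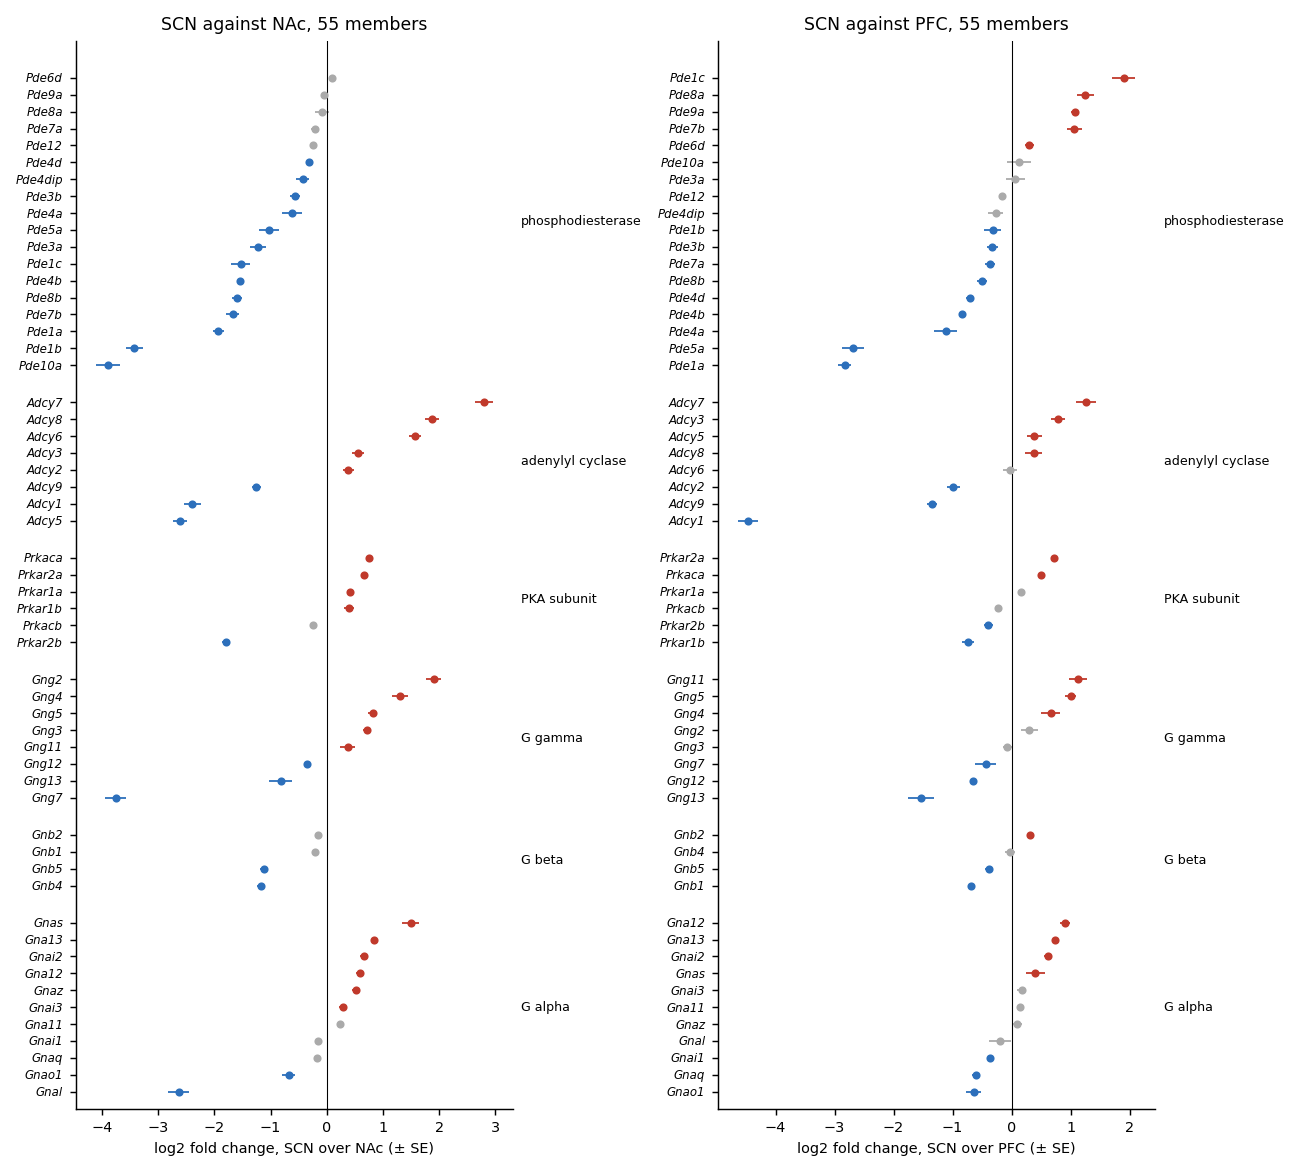
Fitted log2 fold change with standard error of 55 members in the SCN over the NAc (left) and over the PFC (right), grouped by class; red and blue points were called higher and lower in the SCN and grey points were not called. No phosphodiesterase is red on the left, and Adcy1 lies farthest to the left on the right side, at -4.47.

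For Pde10a, Adcy5 and Gnal, the call between the SCN and the PFC depended on the SCN libraries that stood apart. For 5 of the 55 members (Adcy5, Gnb5, Gng7, Pde10a and Pde1b, against 2.44% of all genes) SCN J1199 and SCN J1140, the SCN libraries highest in striatal markers, were the 2 highest SCN libraries. Pde10a measured 191 CPM in SCN J1199 and 79.7 in SCN J1140 and at most 29.6 in the other 17. Its log2 fold change over the PFC was 0.13 ± 0.20 with all libraries (adjusted p = 0.57), -0.47 without these (adjusted p = 1e-05), and in only the 12 mice with both regions -0.51 with the mouse as a block (adjusted p = 0.0013) and -0.50 without (adjusted p = 0.00038). Adcy5 was called higher in the SCN than in the PFC with all libraries (log2 0.39 ± 0.13, adjusted p = 0.0073), and not without these (0.19, adjusted p = 0.11), in the lower mouse numbers alone (-0.01, adjusted p = 0.95) or in only the 12 mice, with the block, where its fold stayed under 1.2 (0.23, adjusted p = 0.016), or unblocked (0.24, adjusted p = 0.057). Gnal was not called with all libraries (log2 -0.20 ± 0.18, adjusted p = 0.33), and was called lower without them (-0.37, adjusted p = 0.049) or with the block (-0.50, adjusted p = 0.023), but not in the same 12 mice unblocked (-0.16, adjusted p = 0.62). Since neither mouse has a PFC library, the fits to the 12 mice, like those to the lower mouse numbers, also leave out SCN J1199 and SCN J1140. Gng7 and Pde1b were called lower in the SCN than in the PFC (log2 -0.44 and -0.32, adjusted p = 0.024 and 0.043), and more so without these libraries (-0.89 and -0.66). Neither was called in the upper mouse numbers alone (-0.19 and -0.10, adjusted p = 0.54 and 0.71), and Pde1b also lost its call without SCN J1157 (adjusted p = 0.06), without SCN J1165 (-0.31, adjusted p = 0.055), with the stricter filter (-0.29, adjusted p = 0.065) and without mitochondrial and ribosomal RNA genes (-0.31, adjusted p = 0.055). Against the NAc, the 5 members named first here stayed called lower under every alternative tried. The part of striatal tissue in these values was not tested.

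SCN J1157 was the highest SCN library for another set of members. Gnal measured 203 CPM there, Adcy3 137, Pde1c 49.5, Pde4a 45.8 and Gng13 19.4, against medians over the 19 libraries of 32.2, 38.2, 9.29, 9.65 and 2.26. As background, olfactory sensory neurons of the nose turn odorants into current through Gαolf with Gγ13, adenylyl cyclase 3 and a cAMP-gated channel, and carry phosphodiesterases 1C and 4A. A list of 17 genes, of this cascade or otherwise known from olfactory sensory neurons, was written after these values had been seen. Of the list, 12 were in the SCN table, and SCN J1157 was the highest library for all 12. It was the highest for 9 of the 55 members (16.4%) and 13.6% of all genes of that table. The 12 include Gnal, Adcy3, Pde1c, Pde4a and Gng13, whose values had prompted the list, and the member Gnb1. For these the tally was fixed in advance and adds nothing. Stoml3, a protein of olfactory cilia, measured 218 CPM there against 0.809 to 12.6 in the other 18 libraries, and the channel subunit gene Cngb1 43.5 against 0.518 to 4.78 (CPM over the SCN table). Ric8b had 93.6 against 36.7 to 53.1, and the factors Ebf1 and Lhx2 25.8 and 16.6 against at most 8.51 and 5.98. Omp, Cnga2, Cnga4, Ano2 and Rtp1 were not among the genes of the table. Without SCN J1157, Gnal was lower in the SCN than in the PFC (log2 -0.49, adjusted p = 0.0012), and without all 4 libraries, SCN J1157, J1159, J1199 and J1140, it was -0.85 (adjusted p = 1.1e-13). In either SCN comparison, no other call among Gnal, Adcy3, Pde1c, Pde4a and Gng13 changed without SCN J1157, while Gng13 went from -0.82 to -1.27 against the NAc and Adcy3 from 0.55 to 0.38. The same mouse's NAc library measured 373 CPM of Gnal, within the range of the other NAc libraries, and 38.1 of Adcy3, where the next highest had 38.0. Ependymal markers summed to 113 CPM in SCN J1157, the second highest of 19. What this library holds besides SCN tissue was not tested.

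**Figure D5:**
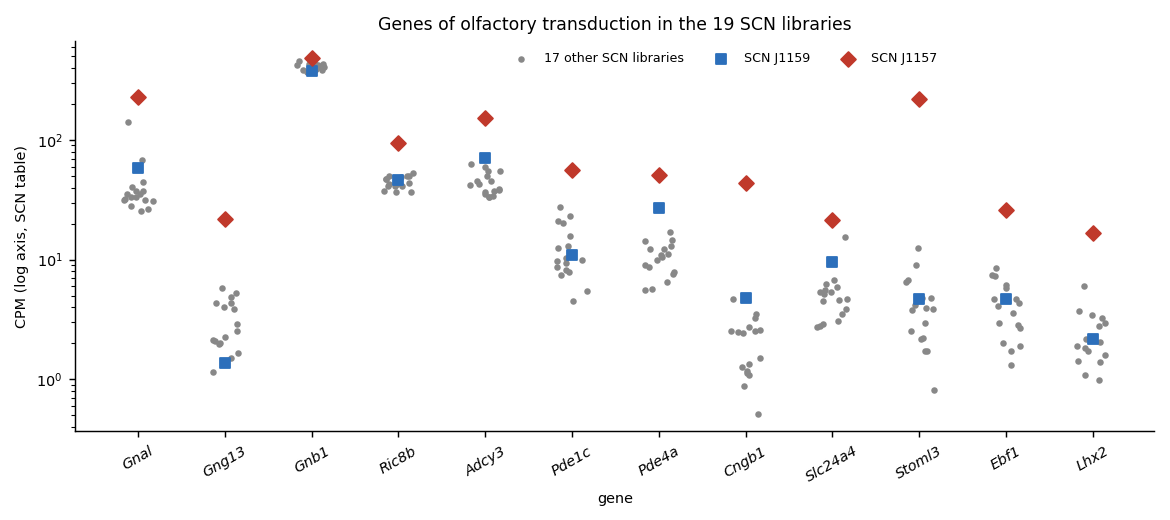
Level (y axis, CPM over the SCN table, log axis) of 12 genes known from olfactory transduction or olfactory sensory neurons in the 19 SCN libraries. The red diamond is SCN J1157, the blue square SCN J1159 and grey points the other 17. The diamond is the highest point for each gene, by the widest margin for Stoml3 (218 CPM against at most 12.6).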

How the data were processed

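RNA from frozen punches was made into SMART-Seq HT libraries and sequenced in pairs on a NextSeq 500. Per the labels and the study's methods, the authors checked reads with FastQC 0.11.7, aligned them with HISAT2 to the Ensembl mouse genome GRCm38 and counted them per gene with HTSeq in union mode (strand setting not given in the sources used here), and the deposited counts are unnormalized, filtered whole numbers, with the NAc and PFC in 1 table, the SCN in another and Y-linked genes removed by the authors. Ensembl identifiers were matched to symbols in an annotation of GRCm38.

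Here edgeR 4.0.16 (R 4.3.3; TMM factors, filterByExpr) was fitted to the NAc and PFC table and, for the SCN, to both tables joined on 11133 shared genes, with region as the only term. Adjusted p is Benjamini-Hochberg over all genes of a fit, SE is the log2 fold change divided by the square root of F, and the thresholds (0.05 and 1.2-fold) are those of the study. The p-values set the difference between regions against the spread between these libraries. The main fits treat the libraries as independent, although some came from the same mouse. In the joined fit all regions share an estimate of that spread. DESeq2 1.42.0 and other filters, scalings, subsets and a block for the mouse were alternatives. Both tools were tested on simulated data. Per the labels a mouse number marks 1 animal, which pairs its libraries across regions, although SCN J1165 differed in Xist from its pair and was kept in the block (17, 19 and 12 mice with both for NAc and PFC, SCN and NAc, SCN and PFC). Deviations of the same mouse correlated at a median r of only 0.0061, 0.0014 and 0.099 and passed 0.1 in 7, 3 and 6 mice. No libraries were duplicates. The members and lists were chosen with earlier results of these data known. Named members were, per class, those most changed in each direction, highest in a region, and called highest or lowest in the SCN, and the other members are named for completeness. From the other genes of the pathway, the 5 most changed in each direction between the NAc and the PFC were to be named, of which 1 is not reported here.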

Additional observations from a re-analysis of the deposited data

How the results depend on the processing

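Counts of calls moved by less than 1.5 times under all 10, 16 and 15 alternatives of the NAc against PFC, SCN against NAc and SCN against PFC comparisons. They ranged from 4351 to 5743, 6438 to 7322 and 6507 to 7355 genes and from 35 to 42, 42 to 48 and 38 to 44 members. Of 1605 single values of 40 members, 1536 kept direction and side of the threshold, 25 became called, 22 lost the call and 22 changed sign. The alternatives without SCN J1157, alone or with others, and the block without mouse J1165 were chosen after seeing the data.

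With the mouse as a block, fitted to only the mice with both regions, Gng5, Pde3b, Pde6d and Prkaca were gained between the NAc and PFC (42 members called), Gng11 was lost between the SCN and NAc (43), and between the SCN and PFC Gnal, Gng2, Pde10a and Prkacb were gained and Adcy5 lost (44). No other call of a member changed there. Unblocked in only those mice, the count was 42, 44 and 42, and the fits with and without the block differed in Gng11 (SCN and NAc) and in Gnal and Prkacb (SCN and PFC), so the other changes came with the choice of mice. Leaving mouse J1165 out of the block gave the same gains and losses (43 and 44). Without SCN J1165 and unblocked, Pde1b was lost and Pde4dip gained between the SCN and PFC, and no other call of a member changed.

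For the SCN over the PFC, Pde10a (log2 0.13) turned to -0.514 with the block, -0.533 with the block without mouse J1165 and -0.502 in only those mice, unblocked. It was -0.499 in the lower mouse numbers, -0.467 without SCN J1199 and SCN J1140 and -0.510 without these and SCN J1157 and SCN J1159. Adcy5 turned to -0.0107 in the lower mouse numbers and Gnal to 0.151 in the upper. All the settings listed for Pde10a, and the lower mouse numbers for Adcy5, left out SCN J1199 and SCN J1140. Neither mouse has a PFC library, and both numbers lie in the upper run. These settings are therefore not separate checks of each other. The cause was not tested. The other sign changes were of members not called either way. Gnao1 (NAc over PFC) came to -0.116 with the block, -0.0988 in only those mice, unblocked, and -0.170 in the lower mouse numbers, where Gna13 came to 0.0259, and Gnai2 to 0.0069 in the upper. Gnb2 (SCN over NAc) came to 0.0348 in the lower mouse numbers. For the SCN over the PFC, Adcy6 came to 0.0042 with the stricter filter, 0.0061 with the block, 0.0262 with it without mouse J1165 and 0.0272 in only those mice, unblocked, Gnb4 to 0.0068 with the stricter filter, 0.016 with the block without mouse J1165 and 0.0939 in the lower mouse numbers, and Gnaz to -0.0906 there.

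Without division by length, shares moved because long transcripts then weigh more. Gnai1 came to 11.0% of Gα in the NAc and 12.7% in the PFC, Gnas to 36.8% in the SCN, Gnb1 to 87.2% of Gβ in the PFC and 81.0% in the SCN, Gng7 to 67.7% of Gγ in the NAc, Gng3 to 21.3% (PFC) and 20.5% (SCN), Prkar1a to 34.3% of PKA genes in the NAc and 35.4% in the PFC, Adcy2 to 20.3% of cyclases in the PFC and 23.5% in the SCN, Pde1b to 24.6% of phosphodiesterases in the NAc, Pde1a to 33.3% in the PFC and Pde6d to 3.43% in the SCN.

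The labels give no control or CRD group, so their part in the spread within a region cannot be seen. The SCN libraries had less depth and a table of their own, which cannot be told apart from the region. Genes absent from the authors' filtered counts, among them 14 of the 70 annotated genes chosen by name, are not analysed here.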

Other observations

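Within the NAc, the 26 libraries parted at a gap in Gng2, with 13 between 6.93 and 15.1 CPM and 13 between 23.1 and 30.9. Beside Gng2, whose gap set them, the same 13 and 13 were apart, without overlap, in 6 of the other 54 members (11.1%) and in 351 of 11132 other genes (3.15%). Among the members, the libraries low in Gng2 were also low in Gnas (50.3 to 149 CPM against 159 to 297), Gng4 (4.02 to 9.79 against 12.5 to 27.7), Adcy2 (23.1 to 37.1 against 47.4 to 68.2), Pde4a (8.70 to 19.3 against 21.2 to 33.4) and Gng3 (14.6 to 25.6 against 25.9 to 38.8), and high in Pde7b (126 to 174 against 67.4 to 120.3).

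Some genes outside the list parted in the same way. Drd1, the dopamine receptor of one class of striatal projection neuron, ran from 134 to 216 CPM in the libraries low in Gng2 and from 63.9 to 114 in the others. Calb1, the calcium-binding protein calbindin, measured 175 to 273 against 46.5 to 87.1, and Arpp21 654 to 1143 against 329 to 479. Sphkap, a PKA-anchoring protein, went the other way, with 6.27 to 21.4 against 50.9 to 105. Pde10a (460 to 786 against 357 to 566), Adcy5, Gnal and Gng7 overlapped between these sets. So did Ppp1r1b, a marker of striatal projection neurons like Drd1 (288 to 531 against 211 to 378). The other striatal markers are not reported for these sets. Each set held 6 libraries of the lower mouse numbers. The sets were found from the values and are not groups of the study, so no test was made, and neither the paradigm, which the labels do not give, nor the position of the punch was tested as a cause.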
